A study of Mus musculus with 4 samples.

Results

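RNA of 42 mouse genes for plasma proteins that hepatocytes secrete was followed through 4 single-cell libraries of liver, out of 31053 genes counted in each library. The genes were taken by symbol from a list of 42, and each symbol matched 1 gene. By role they were 5 carriers (Alb, Ttr, Trf, Rbp4, Gc), 8 apolipoproteins, 6 clotting and fibrinolysis genes, 13 protease inhibitors and fetuins, 7 acute phase and haem-binding genes, 2 major urinary protein genes (Mup3, Mup20) and the adhesion protein gene Vtn. The 4 groups were KO early hepatocellular carcinoma (eHCC), WT eHCC, KO premalignant liver and WT premalignant liver, where KO and WT are the genotype labels for Mef2d, a transcription factor gene of the MEF2 family. Each group is 1 library, so no test between groups was possible, and every interval below is a 95% interval that covers counting error only. The tissue was dissociated with a kit and read with 10x Genomics 5′ chemistry, which counts each tagged RNA molecule once by its unique molecular identifier (UMI). The labels leave out which Mef2d allele was used, where it was deleted and how tumours were brought about. The age, sex and number of the mice are also not in them. Mef2d RNA itself was higher in the libraries labelled KO. At the eHCC stage the KO-labelled library had 96.4 Mef2d UMIs per 1000000 UMIs (CPM; 94.2 to 98.6), against 61.3 CPM (59.8 to 62.9) under the WT label. At the premalignant stage the level was 100.6 CPM (97.8 to 103) under the KO label, against 72.2 CPM (70.3 to 74.1) under the WT label. 5′ tags do not check a deletion that lies elsewhere in the gene, so KO and WT always mean the label here.

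The liver makes most of the protein in blood plasma. Hepatocytes translate these secreted proteins on ribosomes bound to the endoplasmic reticulum, while most enzymes of amino acid and sugar metabolism are made on free ribosomes in the cytosol. Transcription factors of the HNF1, HNF4, FOXA and C/EBP families drive the plasma protein genes, and cytokines of the interleukin 6 and interleukin 1 families raise the acute phase genes. When hepatocytes break during dissociation, their RNA enters the cell suspension, and droplets that hold other cells take up part of it; such counts are called free RNA here.

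The files hold 9672 to 14167 barcodes and 56458438 to 118594527 UMIs per library. After filters on UMIs, genes, mitochondrial UMIs and doublets, 8382 barcodes were kept in the KO eHCC, 9487 in the WT eHCC, 8796 in the KO premalignant and 12229 in the WT premalignant library. Between 27 and 46 barcodes were shared by any pair of libraries, and none of them was a kept hepatocyte-RNA barcode in both libraries of the pair. A hepatocyte-RNA barcode was defined without the 42 genes, as one with at least 1% of its UMIs and at least 5 genes from a list of 45 hepatocyte enzymes. There were 10 such barcodes in the KO eHCC, 42 in the WT eHCC, 952 in the KO premalignant and 918 in the WT premalignant library. The class is a range on a score and not a cell type by itself. With the limit at 0.5% it held 16, 56, 966 and 939 barcodes in the same library order, and with the limit at 2% it held 6, 21, 935 and 884.

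Hepatocyte-RNA barcodes fell into clusters of unlike depth, and the plasma protein genes took a very different share of RNA in them. Low-UMI barcodes numbered 933 in the KO and 889 in the WT premalignant library, with medians of 1212 and 1236 UMIs and of 0.494% and 0.678% mitochondrial UMIs. High-UMI barcodes numbered 15 in the KO and 28 in the WT premalignant library, with medians of 74684 and 30845 UMIs and of 19.9% and 15.5% mitochondrial UMIs. In low-UMI barcodes the 42 genes made up 4.80% (4.77 to 4.84) of all UMIs in the KO and 7.08% (7.04 to 7.11) in the WT premalignant library. In high-UMI barcodes they made up 21.0% (20.9 to 21.0) in the KO and 24.3% (24.3 to 24.4) in the WT premalignant library. Single high-UMI barcodes ranged from 8.25% to 26.5% around a median of 21.8% in the KO library and from 1.07% to 38.5% around a median of 21.2% in the WT library. By depth over all hepatocyte-RNA barcodes of the KO premalignant library, the median share was 3.31% for barcodes of 500 to 1000 UMIs and 3.25% for barcodes of 5000 to 20000 UMIs, against 20.9% in the 16 barcodes above 20000 UMIs. In the WT premalignant library the same medians were 3.97%, 5.22% and 23.4%. Set against the enzyme UMIs of the same barcodes, plasma protein UMIs stood at 0.822 per enzyme UMI in low-UMI and 8.35 in high-UMI barcodes of the KO premalignant library, and at 1.22 and 9.72 in the WT premalignant library. By median, markers of other lineages were near 0 in low-UMI barcodes: the median share of every marker list was 0 in the KO library, and in the WT library the list of liver sinusoidal endothelial cells (LSEC) alone had a median above 0, at 0.0462% of UMIs. In barcodes this shallow a median of 0 does not exclude marker RNA in a part of them. Summed over WT low-UMI barcodes, erythroid markers were at 5138 CPM and LSEC markers at 930 CPM.

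**Figure D1:**
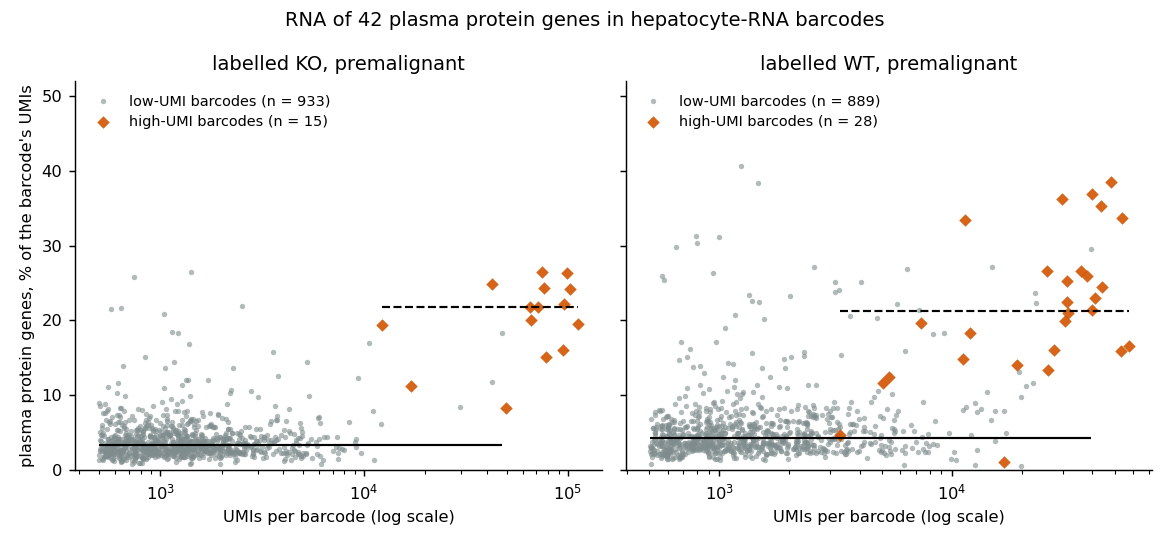
Share of UMIs from the 42 plasma protein genes (y axis, percent) against UMIs per barcode (x axis, log scale) in hepatocyte-RNA barcodes of the 2 premalignant libraries, KO label on the left. Each point is a barcode, grey for low-UMI and orange for high-UMI barcodes, with the solid and dashed lines at their medians (KO 3.40% and 21.8%, WT 4.31% and 21.2%). Low-UMI barcodes stay low over their whole range of depth, apart from a scatter of points above 10%.

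Nearly all of the 42 genes were lower in low-UMI than in high-UMI barcodes of the same library. In the KO premalignant library 41 of 42 were at least 1.5-fold lower, where 16.6% of all genes with at least 20 UMIs in both classes together were and 57.2% were higher, and the median log2 ratio of CPM was -2.62 against 0.77 over all genes. In the WT premalignant library 40 of the 41 with enough UMIs were lower, where 28.1% of all genes were and 40.9% were higher, and the median was -2.68 against 0.27 over all genes. The exceptions were Saa2 in the KO library (0.01) and Serpina1c in the WT library (-0.25). The lowest ratios belonged to fibrinogen alpha (Fga), the clot-forming chain gene, at -4.96 in the KO and -4.73 in the WT library, and to Apob, the structural protein of very low density lipoprotein, at -4.88 in the KO and -5.22 in the WT library. Itih4, which encodes an inter-alpha-trypsin inhibitor heavy chain, was at -3.82 and -4.22, and Plg, the precursor of the fibrin-cleaving enzyme plasmin, was at -3.81 and -3.89 in the same order. Alb, the albumin gene, stood at 3513 CPM in low-UMI and 30575 CPM in high-UMI barcodes of the KO premalignant library (-3.12), and at 3707 CPM and 48815 CPM in those of the WT premalignant library (-3.72).

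Apoc1 and the alpha-1-antitrypsin genes were among those nearest to 0. Apoc1, an apolipoprotein of very low density lipoprotein and chylomicrons, was at -1.08 in the KO and -0.76 in the WT premalignant library. Serpina1e, 1 of 5 mouse genes for alpha-1-antitrypsin, the inhibitor of neutrophil elastase, was at -0.64 in the KO and -0.81 in the WT library. Other plasma protein genes outside the 42, from a list of 76, had medians of -2.61 (67 of 72 lower) in the KO and -2.73 (67 of 73 lower) in the WT premalignant library. Hepatocyte enzymes of the endoplasmic reticulum or membrane, cytochromes P450 among them, had medians of -2.62 (13 of 13 lower) and -3.18 (14 of 14 lower). Cytosolic enzymes had medians of 1.53 (22 of 23 higher, none lower) and 1.43 (17 of 23 higher, 1 lower). The enzymes choose the barcodes and were split after their values had been seen, so their values are a description. The split does not cover the whole list: Cps1, Uox, Otc, Agxt, Ttc36, Hsd17b13, Glyat and Hao1 were put in neither group. Why the classes differ was not tested.

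**Figure D2:**
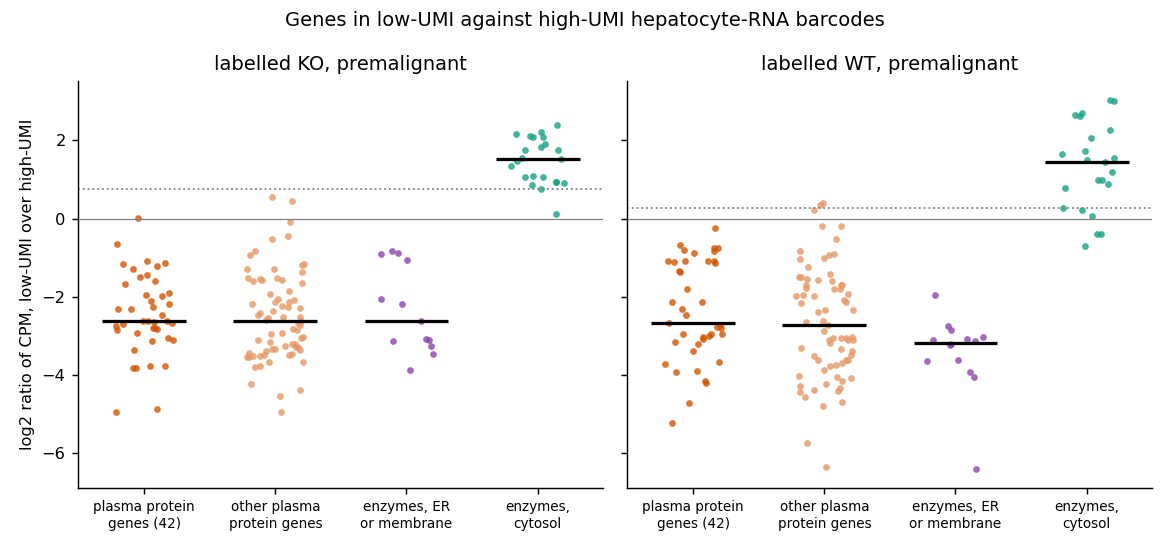
Log2 ratio of CPM in low-UMI over high-UMI hepatocyte-RNA barcodes (y axis) for 4 gene groups in the premalignant libraries, KO label on the left. Each point is a gene, black bars are group medians and the dotted line is the median of all genes; the plasma protein genes lie around -2.62 (KO) and -2.68 (WT), while cytosolic enzymes lie around 1.53 and 1.43.

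Between the premalignant libraries, more of the 42 genes were lower than higher under the KO label in both kinds of barcode, with large differences from gene to gene. In low-UMI barcodes 18 of 41 genes were at least 1.5-fold lower and 1 was higher, where 10.9% of all 8500 genes were lower and 19.7% higher, and the median log2 ratio (KO over WT) was -0.37 against 0.09 over all genes. In high-UMI barcodes 17 of 42 were lower and 1 was higher, where 29.5% of all 6384 genes were lower and 8.74% higher, and the median was -0.46 against -0.25 over all genes; lower genes were thus already frequent in that background. Over all hepatocyte-RNA barcodes pooled, 7 of 42 were lower and 2 higher, where 12.5% and 10.4% of all genes were, with a median of -0.21 against -0.02. Markers of other cells differed between the labels in both directions, and depth differed as well. Summed erythroid markers were at 195 CPM in the KO, against 5138 CPM in the WT low-UMI barcodes, with Hba and Hbb genes on that list. LSEC markers, 8 of 8 detected in both, were at 355 CPM in the KO, against 930 CPM in the WT low-UMI barcodes. Kupffer markers were at 5.88 CPM in the KO, against 67.4 CPM in the WT low-UMI barcodes. Lymphocyte markers went the other way. In low-UMI barcodes T markers were at 139 CPM in KO and 93.7 CPM in WT, NK markers at 69.4 and 18.0 CPM, and B markers at 105 and 58.2 CPM, KO before WT. High-UMI barcodes were deeper in the KO library, as given above. The part of these differences in the ratios was not tested.

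Carriers. Alb stood at 3513 CPM in KO and 3707 CPM in WT low-UMI barcodes (-0.08, -0.13 to -0.03). In high-UMI barcodes it stood at 30575 CPM in the KO, against 48815 CPM in the WT library (-0.68, -0.70 to -0.65). Single high-UMI barcodes overlapped widely, from 6870 to 78697 CPM around a median of 26742 in the KO library and from 596 to 135740 CPM around a median of 28461 in the WT library. With the enzyme limit at 2% the high-UMI Alb ratio was -0.21, so that albumin was no longer past 1.5-fold. Trf, the iron carrier transferrin, was at 1133 CPM in KO and 1999 CPM in WT low-UMI barcodes (-0.82) and at 5630 CPM in KO and 12854 CPM in WT high-UMI barcodes (-1.19, -1.24 to -1.15). It was lower under the KO label in both classes. Ttr, which carries thyroid hormone and the retinol-binding protein, was at 2995 CPM in KO and 4779 CPM in WT low-UMI barcodes (-0.67), but at 14992 CPM in KO and 10112 CPM in WT high-UMI barcodes (0.57). Rbp4, the retinol carrier itself, went the same way with 1505 and 2416 CPM in low-UMI barcodes (-0.68) and 6506 and 5273 CPM in high-UMI barcodes (0.30), KO before WT. Gc, the vitamin D-binding protein gene, was at -0.04 in low-UMI and -0.61 in high-UMI barcodes.

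Apolipoproteins. Apoa4, a protein of chylomicrons and high density lipoprotein, had the lowest ratio of all 42 genes in both classes. It stood at 11.8 CPM (20 UMIs) in KO and 79.8 CPM (155 UMIs) in WT low-UMI barcodes (-2.76, -3.51 to -2.08). In high-UMI barcodes it stood at 98.5 CPM in the KO, against 1417 CPM in the WT library (-3.85, -4.15 to -3.56), and 55.8% of the KO UMIs came from 1 barcode. Apoa1, the main protein of high density lipoprotein and a neighbour of Apoa4, was at 1162 CPM in KO and 2730 CPM in WT low-UMI barcodes (-1.23) and at 7864 CPM in KO and 11985 CPM in WT high-UMI barcodes (-0.61). The other genes of that cluster did not share this. Apoc3, an inhibitor of lipoprotein lipase, was at 2853 and 4157 CPM in low-UMI barcodes (-0.54) and 10622 and 8779 CPM in high-UMI barcodes (0.28), and Apoa5, an activator of the same lipase, was at 0.17 and 0.26. Apoc1 was at 7897 CPM in KO and 9104 CPM in WT low-UMI barcodes (-0.21) and at 16690 CPM in KO and 15401 CPM in WT high-UMI barcodes (0.12). Apoa2 was at 5945 and 6596 CPM in low-UMI barcodes (-0.15) and 23439 and 17033 CPM in high-UMI barcodes (0.46). Apob was the 1 higher gene in low-UMI barcodes, at 66.5 CPM in the KO, against 44.3 CPM in the WT library (0.59, 0.17 to 1.01), but taken as a mean over barcodes it was at -0.08. Apoh, beta-2-glycoprotein I, was at -0.37 in both classes.

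Clotting, inhibitors and adhesion. The fibrinogen genes lay together, with Fga at -0.74, Fgb at -1.03 and Fgg at -0.81 in low-UMI barcodes and at -0.51, -0.65 and -0.75 in high-UMI barcodes. Fgb stood at 205 CPM in KO and 421 CPM in WT low-UMI barcodes and at 2782 CPM in KO and 4366 CPM in WT high-UMI barcodes. Plg (-0.13), F2, which encodes prothrombin (-0.17), and Kng1, which encodes kininogen (-0.04), were near 0 in low-UMI barcodes, and their high-UMI ratios were -0.21, -0.74 and -0.62. Among inhibitors, Ahsg, the fetuin that binds calcium phosphate, was at 381 CPM in KO and 796 CPM in WT low-UMI barcodes (-1.06) and at 2698 CPM in KO and 6368 CPM in WT high-UMI barcodes (-1.24). It was lower in both classes. The bikunin precursor Ambp, antithrombin (Serpinc1), the contrapsin-like gene Serpina3k and the inter-alpha-trypsin inhibitor chains Itih2, Itih3 and Itih4 were within -0.26 to 0.43 in low-UMI barcodes and within -0.69 to -0.27 in high-UMI barcodes. Fetub was at 0.07 and -0.56, and Vtn, which encodes the adhesion protein vitronectin, was at -0.35 and -0.36.

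The 5 alpha-1-antitrypsin genes, which lie side by side at chr12:103728156-103956897 (GRCm38.p6), differed from each other. In low-UMI barcodes Serpina1a was at 1442 CPM in the KO, against 3146 CPM in the WT library (-1.13), Serpina1b was at -1.13 and Serpina1c was at 2462 CPM in the KO, against 5075 CPM in the WT library (-1.04). Serpina1d was at -0.61, and Serpina1e was at 4081 CPM in the KO, against 4734 CPM in the WT library (-0.21, -0.26 to -0.17). In high-UMI barcodes the ratios were -0.67 for Serpina1a, -0.50 for Serpina1b, -0.01 for Serpina1c, -0.01 for Serpina1d and -0.38 for Serpina1e. Transcripts of these genes are 92.1% to 97.9% identical over aligned bases, and the files do not show how reads that match several copies were assigned, so the split among the 5 is uncertain. Promoters of Serpina1a and Serpina1e, which had the most unlike ratios in low-UMI barcodes, are given here with that of Alb from RefSeq (GRCm38.p6), each from 250 bases before to 50 bases after the start of the gene, 5′ to 3′ on the gene's strand. They are identical at 95.9% of 243 aligned bases. Capitals mark GTTAAT, a core of HNF1 sites, searched on both strands. The match lies 32 bases before the start in Alb (chr5:90460620-90460919, plus strand), 21 bases before it in Serpina1a (chr12:103863570-103863869, minus strand) and 78 bases before it in Serpina1e (chr12:103956848-103957147, minus strand).
Alb: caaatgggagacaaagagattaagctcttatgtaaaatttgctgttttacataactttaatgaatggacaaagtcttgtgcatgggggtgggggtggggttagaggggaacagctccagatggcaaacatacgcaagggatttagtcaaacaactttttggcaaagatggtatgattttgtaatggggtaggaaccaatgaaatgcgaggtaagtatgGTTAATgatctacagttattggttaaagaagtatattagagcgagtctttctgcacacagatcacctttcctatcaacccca
Serpina1a: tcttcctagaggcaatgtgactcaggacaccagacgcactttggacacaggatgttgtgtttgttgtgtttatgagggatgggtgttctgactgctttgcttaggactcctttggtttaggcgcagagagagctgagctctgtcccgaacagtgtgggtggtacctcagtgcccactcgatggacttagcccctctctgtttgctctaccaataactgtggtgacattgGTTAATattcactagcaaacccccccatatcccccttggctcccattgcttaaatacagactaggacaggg
Serpina1e: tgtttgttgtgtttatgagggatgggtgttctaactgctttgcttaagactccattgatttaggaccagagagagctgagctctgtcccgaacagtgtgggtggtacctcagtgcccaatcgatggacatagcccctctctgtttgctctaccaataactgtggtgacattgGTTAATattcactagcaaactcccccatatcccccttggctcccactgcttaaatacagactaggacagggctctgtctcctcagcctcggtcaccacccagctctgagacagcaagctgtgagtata
GTTAAT is in 11 of the 32 plasma protein genes with a promoter in that table (34.4%; Alb, Fga, Fgb, all 5 Serpina1 genes, Vtn, Gc and F2) and in 7.10% of all 32851 promoters. A match is a description of the letters and not a site shown to be bound.

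Acute phase and urinary proteins. Saa1 and Saa2 encode serum amyloid A, the apolipoprotein that inflammation induces. Saa1 was at 47.1 CPM (80 UMIs) in KO and 134 CPM (260 UMIs) in WT low-UMI barcodes (-1.51, -1.89 to -1.14), but at 330 CPM in KO and 284 CPM in WT high-UMI barcodes (0.22, -0.03 to 0.46). Saa2 was at 22.9 CPM in KO and 58.7 CPM in WT low-UMI barcodes (-1.35), and at 22.7 CPM in KO and 126 CPM in WT high-UMI barcodes (-2.47), where all KO UMIs came from 1 barcode. Saa4, the member of the family that is made without inflammation, was at 0.36 and 0.19. Their promoters are shown because Saa1 and Saa2 are identical at 96.0% of 299 aligned bases and their transcripts at 94.4%, so reads may also be shared. Capitals mark TTGNGNAA, a pattern like the C/EBP consensus, on either strand. Saa1 (chr7:46742931-46743230, minus strand) holds 2 matches and Saa2 (chr7:46751583-46751882, plus strand) holds 1.
Saa1: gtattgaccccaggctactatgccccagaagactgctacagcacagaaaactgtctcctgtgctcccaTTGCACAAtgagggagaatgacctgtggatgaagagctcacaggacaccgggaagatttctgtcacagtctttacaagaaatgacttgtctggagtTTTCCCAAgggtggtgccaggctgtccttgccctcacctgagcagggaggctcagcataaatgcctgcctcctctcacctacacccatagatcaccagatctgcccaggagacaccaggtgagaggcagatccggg
Saa2: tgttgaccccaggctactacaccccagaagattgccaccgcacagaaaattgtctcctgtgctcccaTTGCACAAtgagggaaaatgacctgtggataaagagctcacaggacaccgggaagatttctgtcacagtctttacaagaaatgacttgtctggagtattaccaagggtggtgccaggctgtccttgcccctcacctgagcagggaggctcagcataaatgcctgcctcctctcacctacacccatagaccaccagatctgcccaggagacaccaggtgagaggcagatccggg
TTGNGNAA is in 14 of 32 plasma protein promoters (43.8%; Apoh, Fga, Fgb, Ahsg, Fetub, Serpinc1, Rbp4, Hpx, Orm2, Saa1, Saa2, Saa4, Itih2 and Mup3) and in 13.3% of all 32851, and no match overlapped a GTTAAT. Hp, the haemoglobin-binding haptoglobin, was at 271 CPM in KO and 550 CPM in WT low-UMI barcodes (-1.02) and at 1743 CPM in KO and 3664 CPM in WT high-UMI barcodes (-1.07). Hpx, the haem carrier hemopexin, was at -0.63 and -0.62, and Orm1, an alpha-1-acid glycoprotein, was at -0.35 and 0.52. Orm2 had 9 UMIs in low-UMI barcodes of both libraries together, too few for a ratio. Mup20, a urinary pheromone carrier, was at 3386 CPM in KO and 7987 CPM in WT low-UMI barcodes (-1.24) and at 20960 CPM in KO and 28095 CPM in WT high-UMI barcodes (-0.42). In low-UMI barcodes 28.7% of the KO and 16.5% of the WT Mup20 UMIs came from 1 barcode. Mup3 was at 2982 CPM in KO and 3867 CPM in WT low-UMI barcodes (-0.38) and was the 1 higher gene in high-UMI barcodes, at 18203 CPM in the KO, against 8414 CPM in the WT library (1.11, 1.07 to 1.15).

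**Figure D3:**
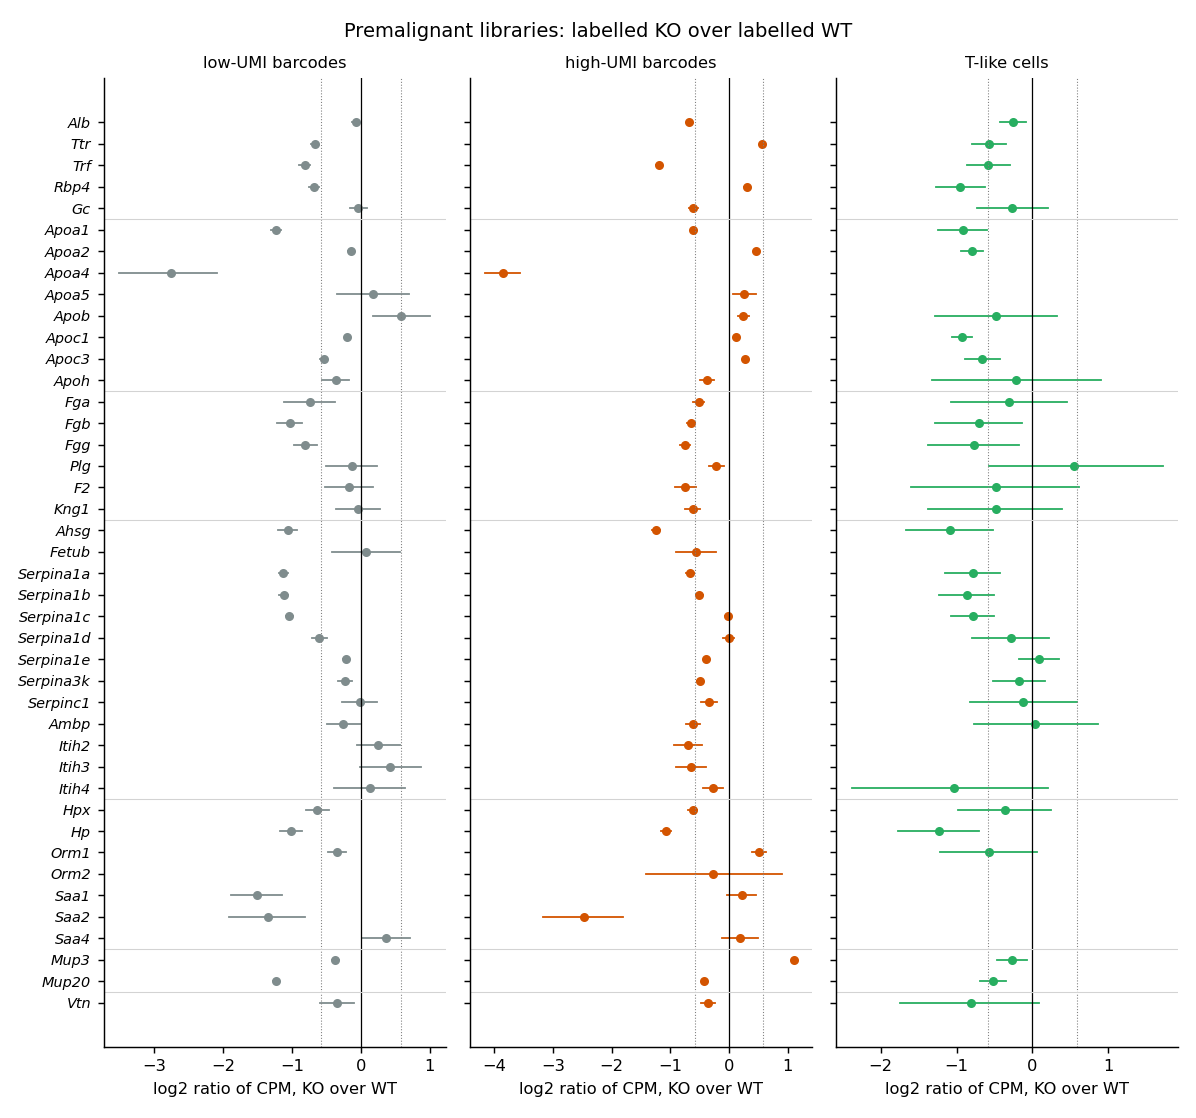
Log2 ratio of CPM (x axis) in the premalignant library labelled KO over that labelled WT for each plasma protein gene (rows, grouped by role) in low-UMI barcodes, high-UMI barcodes and T-like cells. Points carry 95% intervals for counting error, dotted lines mark 1.5-fold, and a missing point has under 20 UMIs; Apoa4 is at -2.76 and -3.85, Mup3 in high-UMI barcodes at 1.11, and the x axes differ between panels.

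Genes for regulators of plasma protein genes, from a list of 26, did not move with them in low-UMI barcodes. There 10 of 24 were at least 1.5-fold higher and 2 were lower under the KO label, where 19.7% and 10.9% of all genes were, with a median of 0.42 against 0.09. Hnf4a, a nuclear receptor of the hepatocyte program, was at 276 CPM in KO and 144 CPM in WT low-UMI barcodes (0.94, 0.72 to 1.16). Stat3, which carries the interleukin 6 signal, was at 74.1 CPM in KO and 36.0 CPM in WT low-UMI barcodes (1.04), while Il6st, the signalling chain of the interleukin 6 receptor, was at 21.8 CPM in KO and 76.7 CPM in WT low-UMI barcodes (-1.82). In high-UMI barcodes 1 of 24 was higher and 6 were lower, where 8.74% and 29.5% of all genes were, with a median of -0.23 against -0.25, which is near the background. Hnf4a was at 166 CPM in KO and 172 CPM in WT high-UMI barcodes (-0.05), Stat3 was at -1.07 and Il6st was at -1.19. Hepatocyte enzymes had medians of 0.18 in low-UMI and -0.05 in high-UMI barcodes, and the other plasma protein genes had medians of -0.15 (7 of 70 higher, 17 lower) and -0.26 (6 of 73 higher, 23 lower), to be read against the same shares of all genes.

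In the libraries labelled WT, high-UMI hepatocyte-RNA barcodes could be compared between stages, with 9 at the eHCC and 28 at the premalignant stage. The genes split: 6 of 42 were at least 1.5-fold higher and 10 lower at the eHCC stage, where 23.1% of all 5861 genes were higher and 19.0% lower, and the median was 0.11 against 0.06 over all genes. The lower ones were both urinary protein genes, the antiproteinase genes Serpina3k and Serpina1e, the serum amyloid genes and 3 apolipoprotein genes. Mup3 stood at 211 CPM at the eHCC and 8414 CPM at the premalignant stage (-5.31, -5.60 to -5.04). Its highest eHCC barcode, at 1738 CPM, was below the premalignant median of 11875 CPM. Mup20 stood at 3601 CPM at the eHCC and 28095 CPM at the premalignant stage (-2.96), but 57.0% of its eHCC UMIs came from 1 barcode. The median eHCC barcode had 105 CPM of Mup20, against 21760 CPM at the premalignant stage. Serpina3k stood at 690 and 6849 CPM (-3.31), Serpina1e at 2322 and 8301 CPM (-1.84) with 79.4% of eHCC UMIs in 1 barcode, Apoc3 at 2903 and 8779 CPM (-1.60), and Apoa2 at 7973 and 17033 CPM (-1.10), eHCC before premalignant. Saa1 had 10 UMIs at the eHCC and 233 at the premalignant stage (-3.85), and Saa2 had 0 and 103, at least 21.2-fold lower against a floor of 3 UMIs. Saa4 was at -1.97 and Apoa5 at -1.31.

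The higher genes were Itih2, Itih3 and Itih4, which encode inter-alpha-trypsin inhibitor heavy chains, with Fetub, Hpx and Kng1. Itih3 stood at 1121 CPM at the eHCC and 336 CPM at the premalignant stage (1.74, 1.53 to 1.95), Itih2 at 1004 and 388 CPM (1.37) and Itih4 at 1285 and 652 CPM (0.98). Fetub was at 1.28, Hpx at 7030 CPM at the eHCC and 3700 CPM at the premalignant stage (0.93) and Kng1 at 2684 and 1453 CPM (0.89). Carriers stayed within 1.5-fold: Alb was at 59742 CPM at the eHCC and 48815 CPM at the premalignant stage (0.29), Trf at 17455 and 12854 CPM (0.44) and Ttr at 8026 and 10112 CPM (-0.33). Of the apolipoproteins, Apoa1 was at 14174 and 11985 CPM (0.24) and Apoc1 at 11374 and 15401 CPM (-0.44) in the same order. Rbp4 was at 4291 and 5273 CPM (-0.30) and Serpina1c at 4763 and 6039 CPM (-0.34). Enzymes of the endoplasmic reticulum or membrane had a median of -3.03 (13 of 14 lower) and cytosolic enzymes one of 0.00. Mitochondrial UMIs had a median of 9.10% at the eHCC and 15.5% at the premalignant stage, and depth a median of 57231 and 30845 UMIs. Summed cholangiocyte markers were at 2589 CPM at the eHCC (4 of 6 detected, Krt19 and Krt7 at 0) and 193 CPM at the premalignant stage (2 of 6), monocyte or macrophage markers at 437 CPM (8 of 9) and 74.4 CPM (7 of 9), and LSEC markers at 9.88 CPM (4 of 8) and 666 CPM (8 of 8). The part of these values in the ratios was not tested.

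**Figure D4:**
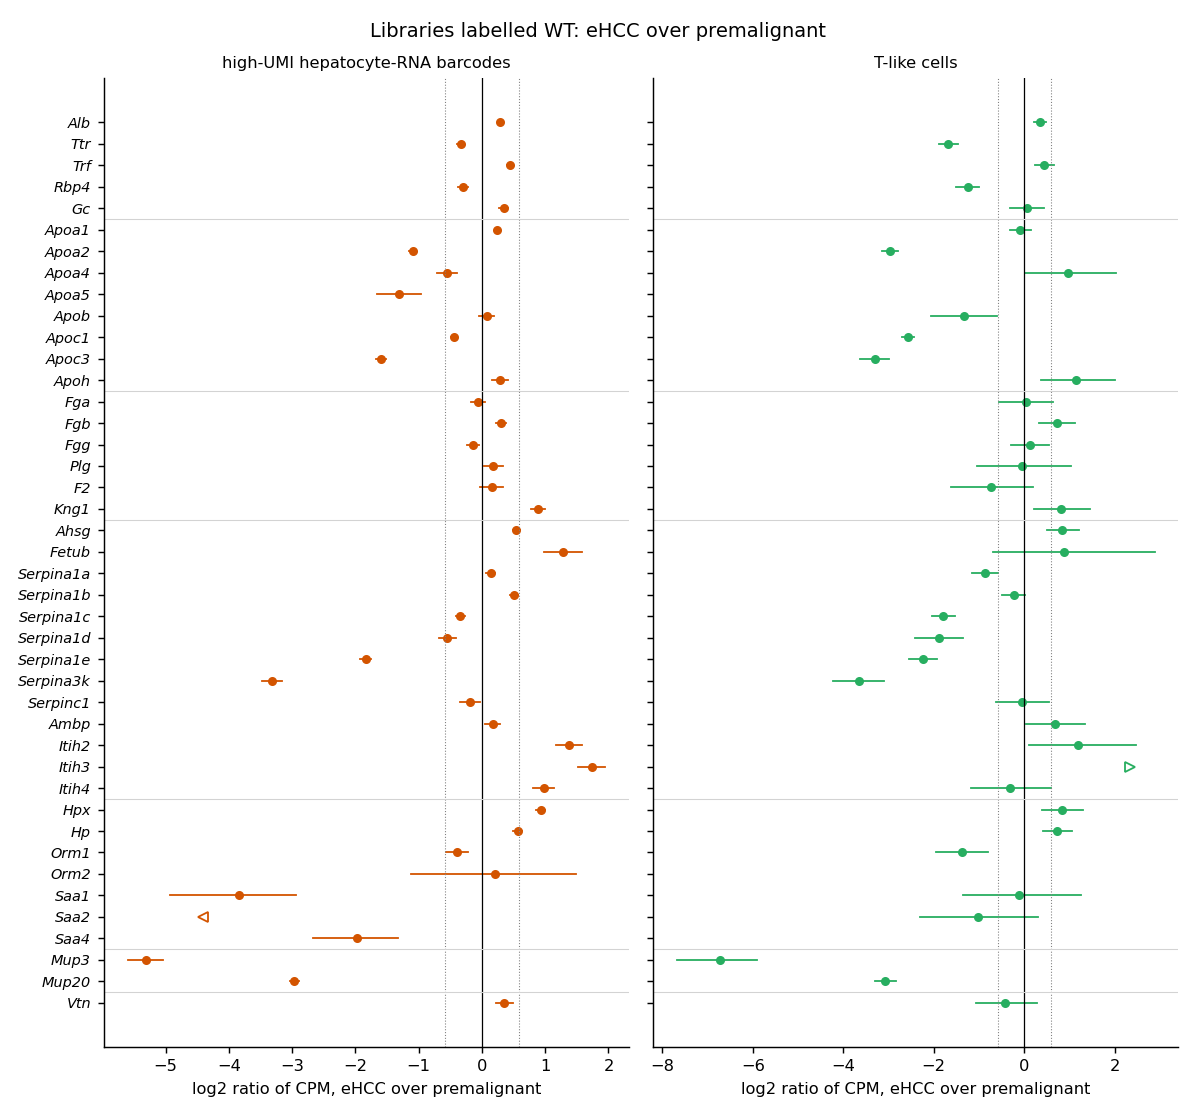
Log2 ratio of CPM (x axis) at the eHCC over the premalignant stage in the libraries labelled WT, for high-UMI hepatocyte-RNA barcodes and for T-like cells. Points carry 95% intervals for counting error, open triangles are bounds for genes with 0 UMIs on 1 side, dotted lines mark 1.5-fold, and a missing point has under 20 UMIs; Mup3 is at -5.31 and -6.72, Mup20 at -2.96 and -3.07, and the x axes differ between panels.

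The KO eHCC library held 10 low-UMI and no high-UMI hepatocyte-RNA barcodes, and the WT eHCC library held 33 and 9. In low-UMI barcodes the 42 genes made up 5.27% of UMIs in the KO eHCC and 14.6% in the WT eHCC library. Alb stood at 15527 CPM in KO and 29725 CPM in WT eHCC low-UMI barcodes, Apoc1 at 5305 and 13006 CPM, Trf at 4011 and 12519 CPM and Rbp4 at 7397 and 6838 CPM, KO before WT. Rbp4 was thus second to Alb among the 42 genes in the KO eHCC barcodes. These sums rest on 10 and 33 barcodes, and no list count is given for them. The barcodes also differed in other ways, KO before WT. Mitochondrial UMIs had medians of 0.183% and 4.25%. Cholangiocyte markers were at 0 CPM (0 of 6 detected) and 10140 CPM (3 of 6, with Krt19 and Krt7 at 0), and monocyte or macrophage markers at 86.3 CPM (2 of 9) and 536 CPM (6 of 9). The vascular endothelial list was at 582 CPM (1 of 7, Clu alone) and 3748 CPM (2 of 7, Clu and Ly6c1). Its other markers, Vwf, Cd34, Efnb2, Sox17 and Rspo3, were at 0 in both libraries. Their part in the difference was not tested.

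The same genes were then read in cells of other lineages, where their counts can be free RNA. T-like cells, named from Cd3 and T cell receptor genes, were numerous in all 4 libraries. Whether they made any of this RNA themselves was not tested. The 42 genes together stood at 31.8 CPM in 4454 KO eHCC, 328 CPM in 3994 WT eHCC, 466 CPM in 2169 KO premalignant and 712 CPM in 1926 WT premalignant T-like cells. The KO eHCC library thus had the least and the WT premalignant library the most. The order was the same in B-like cells (26.3, 426, 521 and 959 CPM) and NK-like cells (64.6, 325, 519 and 824 CPM). Phagocytes held more: the sum was 1959, 2266, 2215 and 3034 CPM in neutrophil-like cells and 3213, 2178, 3730 and 5384 CPM in Kupffer-like cells, which is read gene by gene further on. Monocyte- or macrophage-like cells had 1009, 777, 915 and 1279 CPM, so that the KO eHCC library was not the lowest there, and they held 13021 of the 16720 plasma protein UMIs in other lineages of that library. Cells with at least 1 UMI of the 42 genes were 17.1%, 81.6%, 87.0% and 95.0% of T-like cells in the same library order. With every cell thinned to 1000 UMIs they were 2.74%, 27.5%, 38.2% and 53.2%, after 34, 23, 64 and 18 shallower cells were left out. In sums of this kind, fewer broken hepatocytes and less RNA per hepatocyte cannot be told apart. Barcodes with an Alb UMI were 4.83%, 39.9%, 31.1% and 35.1% of kept barcodes, and hepatocyte-RNA barcodes numbered 10, 42, 952 and 918 in that order. The part of hepatocyte-RNA barcodes in the free RNA was not tested.

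**Figure D5:**
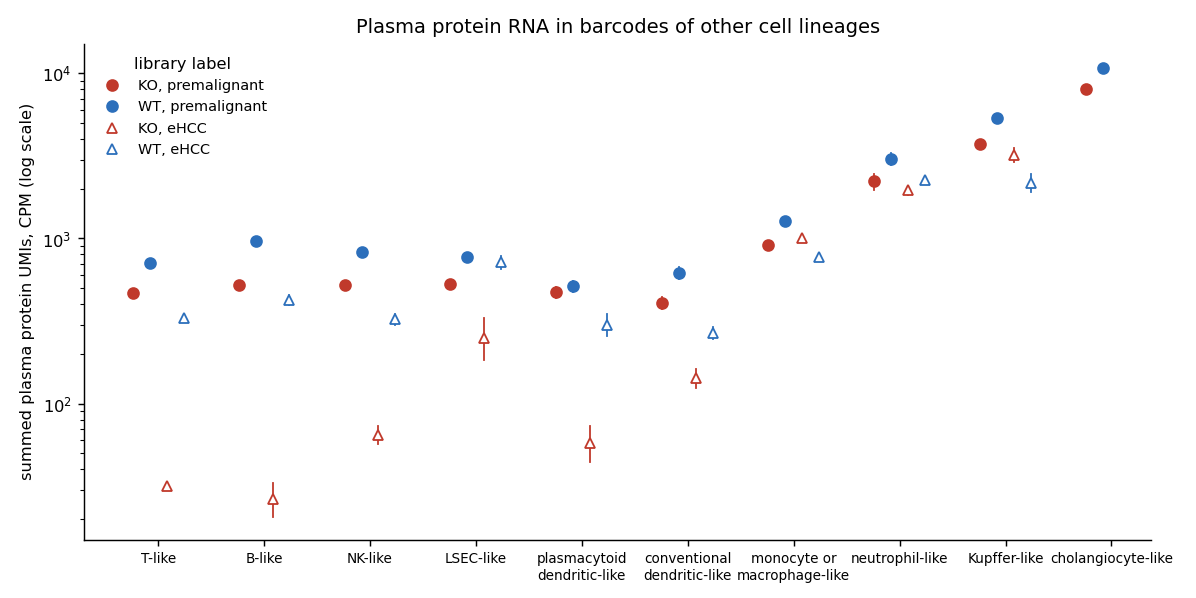
Summed CPM of the 42 plasma protein genes (y axis, log scale) in cell classes named from markers of other lineages (x axis), with 1 symbol per library: red for KO, blue for WT, circles for premalignant and triangles for eHCC. Bars are 95% intervals for counting error; in T-like cells the values are 31.8 CPM in KO eHCC, 328 in WT eHCC, 466 in KO premalignant and 712 in WT premalignant cells.

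Shares of the 42 genes in T-like cells were set against those in hepatocyte-RNA barcodes of the same library. As the sum over the 42 genes of the smaller of the 2 shares, the overlap with high-UMI barcodes was 89.5% in the WT eHCC, 86.8% in the KO premalignant and 72.3% in the WT premalignant library. With low-UMI barcodes it was 65.9% in the KO eHCC, 89.5% in the WT eHCC, 88.1% in the KO premalignant and 81.9% in the WT premalignant library. Comparisons between libraries follow, and those that share a library are not independent. Over cells of all other lineages together, the median KO over WT ratio was -3.11 at the eHCC stage (39 of 41 genes lower, where 27.4% of all genes were; all genes -0.11) and -0.59 at the premalignant stage (21 of 41 lower and 2 higher, where 7.29% and 17.8% were; all genes 0.04). The median eHCC over premalignant ratio was -3.51 under the KO label (38 of 40 lower and 1 higher, where 51.1% and 12.7% were; all genes -0.62) and -0.89 under the WT label (26 of 42 lower and 5 higher, where 42.8% and 17.1% were; all genes -0.43). These sums mix lineages in different proportions, so T-like cells are taken alone from here. Under the KO label at the premalignant stage, 14 of 33 genes were at least 1.5-fold lower and none was higher, where 6.25% and 11.7% of all genes were, with a median of -0.57 against 0.09. Alb was at 47.4 CPM in KO and 56.5 CPM in WT premalignant T-like cells (-0.25), and Apoa1 was at 11.3 CPM in KO and 21.4 CPM in WT premalignant T-like cells (-0.92). At the eHCC stage, 37 of 37 were lower under the KO label, where 20.1% of all genes were and 10.5% were higher, with a median of -4.08 against -0.07. Alb had 212 UMIs (5.91 CPM) in KO and 2121 UMIs (71.5 CPM) in WT eHCC T-like cells (-3.60), and Mup20 had 2 and 213 UMIs. The least lowered were Serpinc1, at 61 and 99 UMIs (-0.97), Hp at 170 and 450 UMIs (-1.68) and Rbp4 at 100 and 271 UMIs (-1.71), KO before WT. A single KO eHCC cell held 17.4% of the UMIs of the 42 genes, and the median without the top cell of each library was -4.57. T-like cells of the eHCC libraries lay in unlike clusters: the largest held 2176 KO and 53 WT cells, and another held 72 KO and 1544 WT cells. In the 7 T-like clusters with at least 50 cells of both eHCC libraries, the 42 genes stood at 22.9 to 80.8 CPM in KO and 180 to 451 CPM in WT cells, lower under the KO label in each.

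Between stages, 30 of 31 genes were lower at the eHCC stage in KO-labelled T-like cells, where 38.4% of all genes were and 9.75% were higher, with a median of -4.21 against -0.37; Hp was at 0.28. In WT-labelled T-like cells 11 of 39 genes were higher and 16 lower, where 8.95% and 19.1% of all genes were, with a median of -0.12 against -0.18. Mup3 had 12 UMIs in eHCC and 443 in premalignant cells (-6.72, -7.68 to -5.90), Serpina3k had 33 and 145 (-3.65), Apoc3 had 108 and 374 (-3.30), and Mup20 had 213 and 627 (-3.07). Apoa2 was at -2.96 and Apoc1 at -2.58. The higher genes included Apoh (1.15), Itih2 (1.19), Ahsg (0.85), Hpx (0.83), Kng1 (0.81) and Fgb (0.72), and Itih3 had 43 UMIs in eHCC and 0 in premalignant cells. Alb was at 71.5 CPM in eHCC and 56.5 CPM in premalignant cells (0.34).

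In every lineage at least 1 of the 42 genes stood above the free RNA profile in some library. The measure was the gene's share of plasma protein UMIs in that lineage over its share in all other lineages of the library. At 3-fold or more there were 77 such listings, 29 of them in the premalignant libraries. No such count was made for other genes, so the number is not read as many or few. Apoc1 stood out in Kupffer-like cells, the resident macrophages of liver sinusoids, in all 4 libraries. It made up 78.4% of plasma protein UMIs in 11 KO eHCC cells (22.3-fold), 53.4% in 13 WT eHCC cells (8.15-fold), 75.9% in 40 KO premalignant cells (5.12-fold) and 76.2% in 330 WT premalignant cells (4.53-fold). Hp made up 91.0% of plasma protein UMIs in neutrophil-like cells of the KO eHCC library, only 1.51-fold above the profile since Hp was 60.2% of it there. It made up 72.9% in neutrophil-like cells of the WT eHCC library (4.86-fold), 58.7% in those of the KO premalignant (25.1-fold) and 66.7% in those of the WT premalignant library (41.3-fold). In monocyte- or macrophage-like cells Hp made up 70.0% in the KO eHCC (2.04-fold), 17.7% in the WT eHCC (0.620-fold), 41.0% in the KO premalignant (33.9-fold) and 41.6% in the WT premalignant library (35.7-fold). Orm1 was 30.3-fold above in KO eHCC and 3.83-fold above in WT eHCC neutrophil-like cells.

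Trf stood out in several lineages. It made up 34.3% of plasma protein UMIs in KO premalignant (7.76-fold) and 43.9% in WT premalignant stellate- or fibroblast-like cells (8.70-fold), and 30.9% in KO premalignant (7.33-fold) and 20.5% in WT premalignant conventional dendritic-like cells (3.88-fold). In monocyte- or macrophage-like cells it made up 48.2% in the WT eHCC library (4.64-fold), where most of the class lay in 2 clusters other than the 1 that held most of it in the KO eHCC library. Of 255 plasma protein UMIs in KO eHCC NK-like cells, 181 were Trf (71.0%). Cholangiocyte-like cells, the bile duct lining, were present in the premalignant libraries with 53 KO and 36 WT cells. There Ambp had 1723 UMIs in the KO (29.4-fold) and 753 UMIs in the WT library (33.9-fold), Itih2 was 5.04-fold and 14.7-fold above, and Alb 3.45-fold and 5.96-fold. In LSEC-like cells F2 was 4.74-fold above in the KO premalignant and 3.27-fold above in the WT premalignant library. Apoa4 (16.2-fold, 22 UMIs, KO premalignant) and Itih3 (5.07-fold, 51 UMIs, WT premalignant) also stood out there. Of the remaining listings in the premalignant libraries, Ttr was 3.75-fold above in KO and 3.74-fold in WT cholangiocyte-like cells, and Vtn was 3.45-fold above in WT cholangiocyte-like and 8.38-fold in WT stellate- or fibroblast-like cells. Trf was 4.42-fold above in monocyte- or macrophage-like cells of the KO premalignant library and made up 31.9% of plasma protein UMIs (44 UMIs) in its mast- or basophil-like cells. Serpina1a (3.22-fold) and Serpinc1 (6.27-fold) were above in KO premalignant plasmacytoid dendritic-like cells, and Saa4 (3.30-fold, 15 UMIs) in WT premalignant T-like cells. In the KO eHCC library, where free RNA was scarcest, 14 genes were listed in T-like cells at 3.24-fold to 18.7-fold. They were Ahsg, Alb (18.6%, 8.43-fold), Ambp, Apoa1, Apoa2, Fga, Fgb, Fgg (18.7-fold), Gc, Rbp4 (8.78%, 11.6-fold), Serpina1a, Serpina1b, Serpinc1 (5.36%, 14.6-fold) and Ttr. Without the 1 cell that held 17.4% of these UMIs, 11 of the 14 were still listed, at 3.92-fold to 17.7-fold. Fga, Fgb and Gc were not, and Fgg was then at 7.53-fold. With Hp, Trf and Apoc1 left out of the sum instead, no listing in T-like cells remained in any library. The 14 listings thus depended on Hp, Trf and Apoc1 being in the sum of the KO eHCC library. In the same library Trf was 3.59-fold above in NK-like and 3.33-fold in plasmacytoid dendritic-like cells. Alb was 4.80-fold above in B-like, 7.72-fold in erythroid-like and 5.63-fold in vascular endothelial-like cells. Apoa1 (5.94-fold) and Rbp4 (7.71-fold) were above in mast- or basophil-like cells, and Apoa2 (14.1-fold) and Apoc1 (3.02-fold) in vascular endothelial-like cells. In the WT eHCC library the remaining folds lay between 3.01 and 9.77. They were Apoc3 and Fgg in B-like cells, Apoc3 and Fgb in NK-like cells, and Apoa4, Mup20, Mup3, Orm2, Serpina3k and Serpinc1 in T-like cells. They were also Serpina1a, Serpina1b and Serpina1e in LSEC-like cells, Ahsg, Fetub (9.77-fold) and Itih3 in stellate- or fibroblast-like cells, and Apoa2, Orm1 and Rbp4 in vascular endothelial-like cells. Without Hp, Trf and Apoc1 in the sum, no B-, NK-, erythroid-, vascular endothelial- or mast- or basophil-like listing remained in any library. None remained in LSEC-like cells of the WT eHCC library. In the WT premalignant library F2 in LSEC-like cells and Ttr and Vtn in cholangiocyte-like cells were no longer listed. Listings of Hp, Trf and Apoc1 themselves drop out by construction. A share over the profile does not by itself show that the cells made the RNA.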

How the data were processed

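Per the labels, polyadenylated RNA of dissociated mouse liver was read with 10x Genomics 5′ chemistry in 4 libraries, 1 per group. Values in the deposited files are whole UMI counts, not normalized; software version 3.0.1 stands in the file headers, and Cell Ranger in the submitters' notes. The submitters' processing notes name bcl2fastq 2.20.0 and the builds GRCh38 and mm10 without their roles and give no counting settings.

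Barcodes were kept from 500 UMIs and 300 genes upwards if mitochondrial UMIs did not exceed 25%. Doublets were scored with scrublet in scanpy 1.11.5 and the highest scores removed, 0.8% per 1000 cells (581 in KO eHCC, 795 in WT eHCC, 701 in KO premalignant and 1483 in WT premalignant libraries, fewer where scores were tied). The libraries were clustered together (2000 variable genes, 40 components, 15 neighbours, resolution 1) without plasma protein and enzyme genes, and clusters were named X-like from marker lists; 927 KO eHCC cells and at most 59 in any other library stayed unnamed. UMIs were summed per class and library with numpy 2.4.6. CPM have exact Poisson, shares Clopper-Pearson and ratios exact conditional binomial intervals at 95% (scipy 1.17.1), which cover counting error only; replicate variation could not be measured. A gene needed 20 UMIs in both sums together for a ratio, and was counted at 1.5-fold in either direction. The ratio code was tested on simulated data. All 42 genes are accounted for; those with most UMIs, the extremes of each role group and those above the free RNA profile (3-fold, at least 10 UMIs, interval above 1) are given in full. The genes, lists and classes were chosen with earlier results of these data known. Promoters and gene positions are from RefSeq (GRCm38.p6); 10 of the 42 genes had no promoter entry there (Ttr, Trf, Apoc1, Apoc3, Serpina3k, Hp, Orm1, Mup20, Plg, Kng1).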

Additional observations from a re-analysis of the deposited data

Results flagged for a closer look

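In T-like cells 6 genes had opposite signs between stages under the 2 labels, each past 1.5-fold (eHCC over premalignant, log2 ratio of CPM), of 31 with enough UMIs under both labels (19.4%); over all 12241 such genes 0.899% were lower under the KO and higher under the WT label in this way. Apoh was at -3.25 under the KO and 1.15 under the WT label, Fgb at -2.81 and 0.72, Ahsg at -2.63 and 0.85, Ambp at -3.07 and 0.67, Hpx at -5.10 and 0.83, and Kng1 at -2.89 and 0.81, KO before WT. With 1 library per group the difference was not tested. The KO eHCC library had 4 UMIs of Hpx and 5 of Apoh in its T-like cells.

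Barcodes of the hepatocyte clusters that stayed under the enzyme limit were in none of the comparisons as reported, though some alternatives took part of them in. The 42 genes made up 2.88% of UMIs in 23 KO eHCC barcodes (2.81 to 2.94) and 23.98% in 24 WT eHCC barcodes (23.8 to 24.1). Mitochondrial UMIs had a median of 0.734% in KO and 13.5% in WT eHCC barcodes, and depth a median of 5729 UMIs in KO and 1716.5 UMIs in WT eHCC barcodes; their part in the difference was not tested. Alb was at 9959 CPM in KO, against 62712 CPM in WT eHCC barcodes, and Rbp4 at 4692 CPM in KO, against 5422 CPM in WT eHCC barcodes. Serpina1e had 1 UMI in the KO and 2818 in the WT eHCC barcodes, while Mup3, Serpina3k, Apoa5 and Saa2 had 0 in the KO eHCC barcodes. The plasma protein profile of KO eHCC T-like cells overlapped that of the KO eHCC barcodes by 60.03%.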

How the results depend on the processing

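No paired analysis was possible because each group has 1 library. The pooled premalignant median over all hepatocyte-RNA barcodes (-0.21, KO over WT) depended on which barcodes were taken. It was -0.31 with the enzyme limit at 0.5%, 0.0139 at 2%, -0.64 as a mean over barcodes, -0.12 per enzyme UMI and -0.95 with at most 10% mitochondrial UMIs; chosen after seeing the data, it was -0.37 in low-UMI, -0.46 in high-UMI and -0.50 in barcodes under 5000 UMIs. The count of genes past the fold, 9, became 25 as a mean over barcodes, 30 at 10% mitochondrial UMIs, 2 at 2-fold, 19 in low-UMI, 18 in high-UMI and 18 in barcodes under 5000 UMIs. Medians over all genes were 0.08 as a mean over barcodes and 0.09 at 10% mitochondrial UMIs. Shares of all genes past the fold are given above for low-UMI and high-UMI barcodes. They were not taken for the other alternatives, so those counts have no background. Low-UMI barcodes alone gave -0.58 as a mean over barcodes and -0.54 without the top barcode of each library; high-UMI barcodes gave -0.23 at 2% and -0.27 as a mean. Low-UMI over high-UMI medians were -2.82 (mean over barcodes), -2.89 (CPM of other UMIs) and -2.78 (without the top barcode) in the KO, and -2.32 (limit at 2%) and -2.98 (CPM of other UMIs) in the WT premalignant library.

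Over all other lineages, cells assigned from their own markers gave -1.49 for KO over WT at the eHCC stage (all genes -1.01). For stages they gave -0.38 under the KO label (11 of 36 higher and 17 lower, all genes -1.49). Under the WT label they gave 0.29, a reversal (all genes -0.51). Set against all genes, the stage ratio under the KO label was thus reversed as well. In T-like cells the medians of the 42 genes were -1.32, -2.20 and -0.98 in the same order. That assignment takes in barcodes of the hepatocyte clusters. The median over lineages was -1.89 under the KO and -0.21 under the WT label, T-like cells alone (added later) gave -4.08, -4.21 and -0.12, and keeping doublets gave -3.87 for KO over WT at the eHCC stage and -0.38 for stages under the WT label. The 77 listings above the free RNA profile became 25 with cells assigned from their own markers, 175 at 2-fold, 41 at 5-fold, 29 in the premalignant libraries and 23 without Hp, Trf and Apoc1 in the sum, the last 2 chosen after seeing the data, as was leaving out the KO eHCC T-like cell with most of these UMIs (73). Of 1665 values of single genes under these alternatives 1292 stayed within counting error, 369 moved further and 4 changed sign: Apob in low-UMI barcodes (-0.0751, mean over barcodes), Fgg in T-like cells between premalignant libraries (0.10, thinned), Serpina1d in T-like cells between stages under the KO label (0.28, own markers) and Hp under the WT label (-0.0328, own markers). Where no cause is named it was not tested. T-like cells of the KO eHCC library held 1139 UMIs of the 42 genes in all, and 11 of the 42 had too few for a ratio between stages there.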
